A study of Mus musculus with 12 samples.

Results

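Fibroblasts that carried only oncogenic RAS were compared with fibroblasts that carried only a hairpin against p53. The comparison used the 6 arrays of these groups out of 12 in the series, chosen by their titles and not by any measured value. RASV12 cells (3 arrays) were mouse embryonic fibroblasts (MEFs) with a viral vector for an oncogenic form of RAS and, per the labels, no p53 hairpin. The shp53 cells (3 arrays) were MEFs with a viral vector for a short hairpin RNA against mouse p53 mRNA and no added oncogene. All were grown from C57BL/6 embryos of days E12.5 to E13.5, in serum-containing medium, and 100 ng of RNA went on each 1-colour Agilent array. The other 6 arrays carried both vectors, shp53 then RASV12 or RASV12 then shp53, and entered only the estimate of the spread and a few levels given for comparison. The series holds no array of cells without a vector or with an empty one among the samples analysed here, so a difference owed to RAS and one owed to p53 knockdown cannot be told apart. Litter, passage number and time after infection are not given in the sources used here.

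RAS is a small GTPase that passes growth factor signals to the RAF, MEK and ERK kinases. In primary fibroblasts a permanently active RAS is known to end in senescence, a lasting growth arrest that depends on p53 and the Cdkn2a products and comes with secretion of cytokines, chemokines and proteases. Fibroblasts that lose p53 are known to keep dividing without this arrest, and MEF cultures are known to contain some macrophages of the embryo.

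Between 59.6% and 61.7% of spots were well above background on the 6 arrays. Signals are given as log2 values relative to the array's 75th percentile, called scaled log2 signal below. A log2 fold change is the scaled log2 signal in RASV12 cells minus that in shp53 cells, with limma's standard error from 3 arrays a group. The number of arrays limits the precision, and with 3 against 3 an exact permutation test cannot give a two-sided p under 0.1, so adjusted p-values come from limma across all genes. Replicates 1 and 3 lay close together in both groups, with r = 0.996 across genes in RASV12 cells and 0.998 in shp53 cells, while replicate 2 stood apart in both (r = 0.980 to 0.981 in RASV12 and 0.967 in shp53 cells). The difference within the close pairs had an SD 1.90 times that of replicate spots in RASV12 cells and 1.57 times in shp53 cells. The design text calls the arrays independent biological replicates, and the p-values rest on the spread among these arrays, whatever its source.

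The arrays also differed in signal from macrophages. The summed signal of 40 tested macrophage markers, on the linear scale, was 20.3, 30.8 and 16.6 times the 75th percentile on RASV12 replicates 1, 2 and 3, against 279, 24.5 and 274 times on shp53 replicates 1, 2 and 3. Arrays of the same replicate number shared a slide. On each slide shp53 was at position 1 and RASV12 at position 2, so group and position cannot be told apart. On slide 2 the macrophage signal differed less than on the others, and its measures disagreed in direction. The summed signal was higher in RASV12 cells, at 30.8 against 24.5. Yet 31 of the 40 markers were lower in RASV12 cells, and the markers' mean log2 signal was -2.80 in RASV12 and -2.11 in shp53 cells. Differences on each slide are given below. A lower level of such a marker may mean fewer cells or less RNA per cell, which bulk RNA cannot tell apart. Of 17 tested fibroblast markers, all were well above background on the 3 RASV12 arrays. Of 17 epithelial markers 6 were tested, and their summed signal was 7.99 to 8.10 times the 75th percentile on RASV12 arrays, against 1.35 to 1.57 times on shp53 arrays. The median log2 fold change of these 6 was 0.04. Cdh1 and Epcam, which define epithelium, were below background on all 6 arrays. The keratin gene Krt14 was above background on RASV12 replicate 1 and shp53 replicates 1 and 3. Krt8 was so on shp53 replicates 1 and 3, and Krt5 on shp53 replicate 3 with 1 of 2 probes.

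At an adjusted p of 0.05 limma called 3917 of the 14447 genes tested, or 27.1%, of which 2068 were higher (14.3%) and 1849 lower (12.8%) in RASV12 cells. These shares of all genes stand beside the counts of every list below. The median log2 fold change over all genes tested was 0.05. Of the higher genes 2052, and of the lower genes 1823, differed in the same direction on all 3 slides, and 804 and 813 did so by at least 2-fold each time. The highest by log2 fold change were the calcium-binding alarmin S100a8, the prolactin family hormones Prl2c5, Prl3d2, Prl3d1 and Prl8a9, then Crisp3, Lcn2, Lce1g, Saa3, Il1f6, Wfdc2, Areg, Il1a, Mmp10 and Vmn2r78. Those at the other end were the macrophage genes Cx3cr1, C1qa, C1qc and Fcrls and the matrix genes Abi3bp, Aspn, Fndc1, Omd and Tnn, with Scg2, Lgr5, Ecrg4, Chrdl1, Insc and Tmem178. With the close arrays averaged 1030 genes passed, 3.8% higher and 3.33% lower. Without the array that stood apart in each of the 4 groups, replicate 2 in RASV12 and shp53 cells, 8452 passed, 32.7% higher and 25.8% lower. That fit takes its spread from close pairs, and the differences themselves also moved, so that the macrophage markers' median was -4.90 in it and -3.75 with all arrays.

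**Figure D1:**
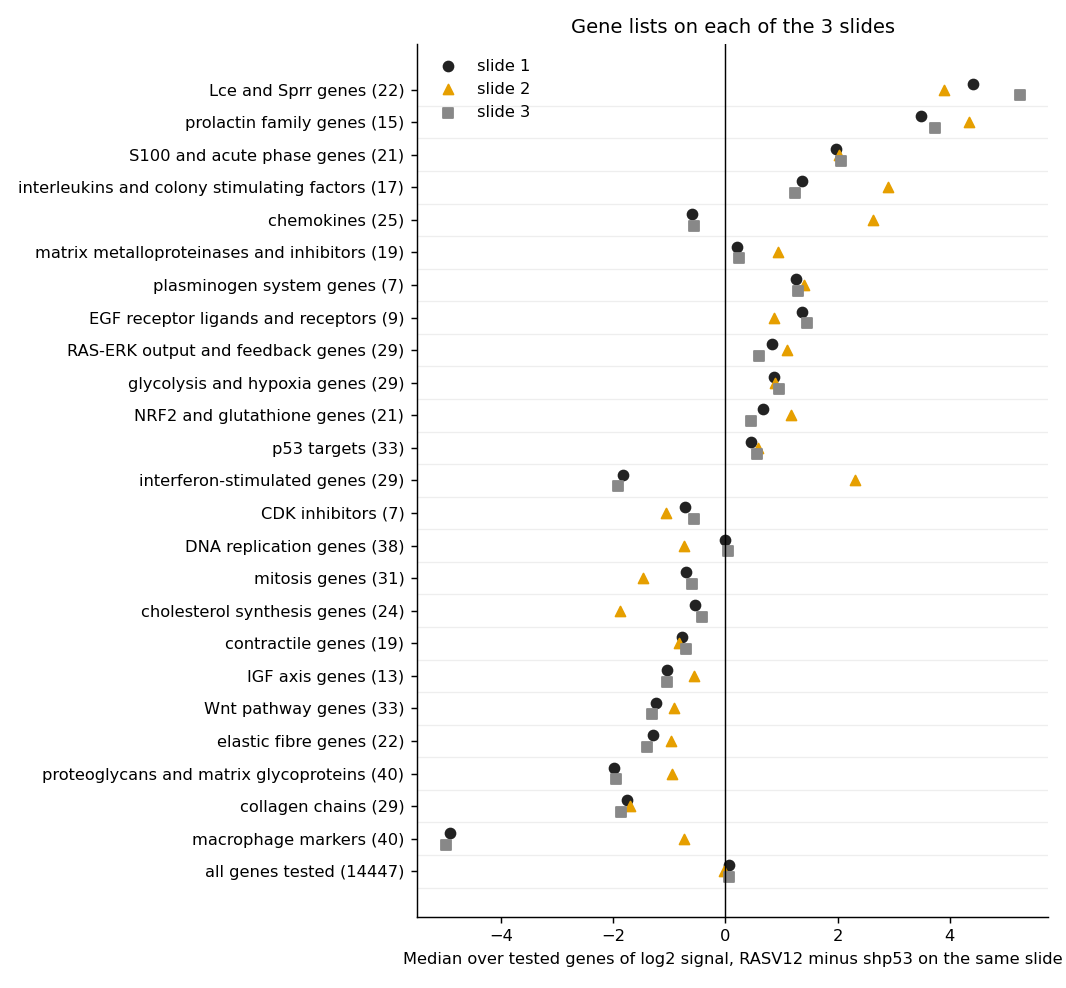
Median over the tested genes of each list (their number in brackets) of the scaled log2 signal in RASV12 minus shp53 cells, for the 2 arrays on slide 1 (circles), 2 (triangles) and 3 (squares). Interferon-stimulated genes and chemokines had opposite signs on slide 2, macrophage markers were near -5 on slides 1 and 3 only, and collagen chains lay between -1.70 and -1.87 on all 3.

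The target of the hairpin was higher in RASV12 cells. Trp53, which encodes p53, had a scaled log2 signal of -0.35, -0.75 and -0.58 on the RASV12 arrays, against -3.22, -3.55 and -3.06 on the shp53 arrays. The groups did not overlap, and the log2 fold change was 2.71 ± 0.20 (SE, n = 3 each, limma adjusted p = 8.98e-06). The probes for mouse Hras and Nras need not detect the RAS transgene, whose species the labels do not give. Hras had 2.63, 2.36 and 2.84 in RASV12 cells and 2.05, 2.19 and 2.0 in shp53 cells. It did not pass (adjusted p = 0.155). Without the array that stood apart in each of the 4 groups it passed (limma adjusted p = 0.0013), in a fit where 32.7% of all genes passed as higher. Nras did not pass either (adjusted p = 0.955), and its 3 probes disagreed, with log2 fold changes from -0.02 to 1.14.

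Genes that p53 activates were higher in RASV12 cells. Of 33 tested, 18 were higher and 1 lower, with a median log2 fold change of 0.53 and medians of 0.46, 0.58 and 0.57 on the 3 slides. Mdm2, the ubiquitin ligase that degrades p53, had 5.54, 5.88 and 5.60 in RASV12 cells, against 3.99, 3.78 and 4.05 in shp53 cells. Perp, a desmosomal membrane protein, had 4.23, 4.06 and 4.26 in RASV12 cells, against 0.03, -0.61 and 0.17 in shp53 cells. Every RASV12 array was above every shp53 array for both genes, with log2 fold changes of 1.73 ± 0.14 and 4.32 ± 0.34 (adjusted p = 1.51e-05 and 1.5e-05). Ccng1, Ak1 and the apoptosis genes Bax and Pmaip1 rose by 1.49 ± 0.18, 1.13 ± 0.11, 0.54 ± 0.12 and 1.74 ± 0.45 (adjusted p = 0.000218, 6.2e-05, 0.00779 and 0.016). Pmaip1 did not pass without RASV12 replicate 2 or without shp53 replicate 1 or 3. The exception was Sesn1, a stress-induced regulator of nutrient signalling, which was lower by -1.61 ± 0.17 (adjusted p = 7.6e-05). With the macrophage score, the mean signal of the macrophage markers, as a covariate 7 p53 targets were higher and 1 lower, where 6.2% of all genes were higher and 4.64% lower. With close arrays averaged 5 were higher and 1 lower, where 3.8% of all genes were higher and 3.33% lower.

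The cell cycle inhibitors did not move together. Cdkn1a, which encodes p21 and is itself a p53 target, had 3.52, 3.82 and 3.64 in RASV12 cells and 2.58, 2.14 and 2.61 in shp53 cells, a log2 fold change of 1.21 ± 0.16 (adjusted p = 0.000327). Cdkn2a, which encodes p16 and p19Arf, had 5.23, 5.72 and 5.38 in RASV12 cells and 5.50, 5.24 and 5.46 in shp53 cells. Its groups overlapped, and neither it nor its neighbour Cdkn2b passed (adjusted p = 0.92 and 0.93). Of the 7 inhibitors tested 4 were lower. They were Cdkn2c, which encodes p18, Cdkn1b, which encodes p27, Cdkn1c, which encodes p57, and Cdkn2d, which encodes p19Ink4d, at -1.99 ± 0.18, -2.10 ± 0.28, -1.85 ± 0.47 and -0.81 ± 0.21 (adjusted p = 3.43e-05, 0.000361, 0.015 and 0.015). Without shp53 replicate 3 only 2 of them passed as lower.

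**Figure D2:**
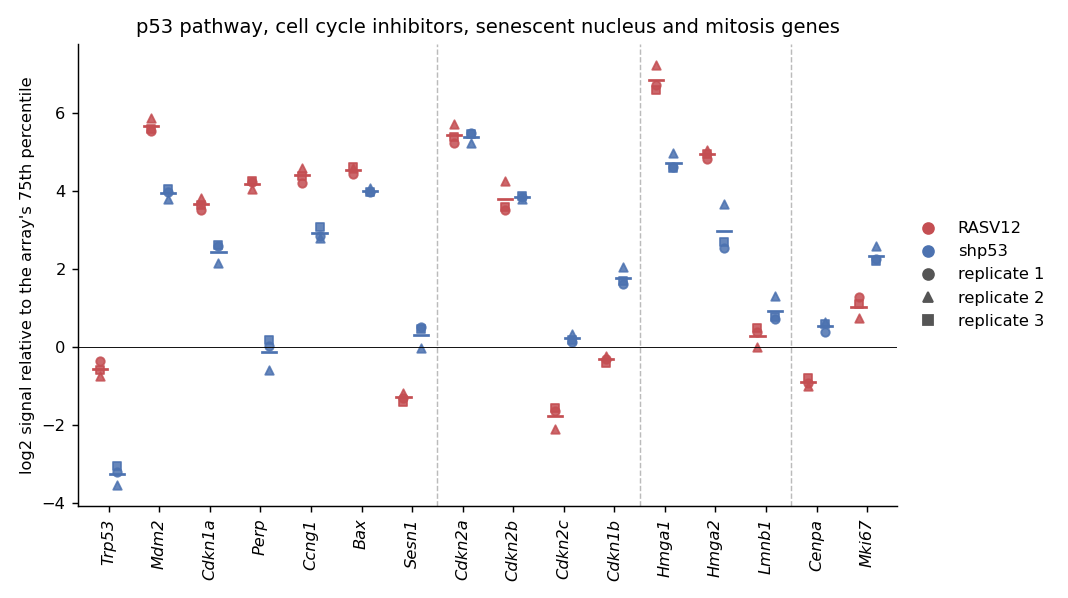
Scaled log2 signal of p53 pathway genes, cell cycle inhibitors, genes of the senescent nucleus and mitosis genes on each array, RASV12 (red) left of shp53 (blue), with replicates as symbols and group means as bars. Trp53, Mdm2 and Perp separate fully and Cdkn2a overlaps.

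Genes of the senescent nucleus split as well. Of 10 tested, 2 were higher and 3 lower, where 14.3% of all genes were higher and 12.8% lower. Their median log2 fold change was -0.29, and 0 to 2 were lower with 1 array left out. Hmga1 and Hmga2, architectural proteins of senescent heterochromatin, were higher by 2.12 ± 0.20 and 1.98 ± 0.26 log2 units (adjusted p = 3.93e-05 and 0.000341). Hmga1 had 6.72, 7.24 and 6.59 in RASV12 cells and 4.62, 4.98 and 4.58 in shp53 cells. Its 3 probes agreed in direction only, with log2 fold changes from 0.44 to 2.49. Lmnb1, the lamin that is commonly lost in senescence, had 0.37, 0.00 and 0.48 in RASV12 cells and 0.70, 1.30 and 0.78 in shp53 cells, which did not pass (adjusted p = 0.46). Glb1, which encodes the lysosomal enzyme behind the senescence-associated galactosidase stain, did not pass either (0.35 ± 0.22, adjusted p = 0.29).

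Mitosis genes lay lower in RASV12 cells on every slide but seldom passed. Of 31 tested, 29 had all RASV12 arrays below all shp53 arrays, a pattern that 23.9% of all genes tested showed, and the list's median log2 fold change was -0.95. Only Cenpa, the centromeric histone, passed in the fit of all arrays (-1.44 ± 0.46, adjusted p = 0.041), and leaving out any 1 of the 6 arrays ended that call. Mki67, the proliferation antigen, had 1.27, 0.74 and 1.1 in RASV12 cells and 2.26, 2.58 and 2.19 in shp53 cells (-1.31 ± 0.64, adjusted p = 0.16). That fit takes its spread from all 12 arrays, and in a fit of these 6 arrays alone 26 mitosis genes were lower and 0 higher, while 15.7% of all genes were lower and 17.6% higher. Of 38 DNA replication genes 13 had all RASV12 arrays below all shp53 arrays and 1 had them above. In the fit of 12 arrays 0 were higher and 1 lower, and in the fit of 6, 1 was higher and 4 lower. Their slide medians were 0.002, -0.75 and 0.056, below 0 on slide 2 only. Without the array that stood apart in each group 14 were higher and 6 lower, where 32.7% of all genes were higher and 25.8% lower. The difference between the mitosis and replication lists was not tested. The gene lower in the fit of 12 was E2f2, a transcription factor of S phase, at -2.38 ± 0.28 (adjusted p = 0.000201).

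Targets and feedback regulators of ERK signalling rose and fell. Of 29 tested, 15 were higher and 4 lower in RASV12 cells, with a median log2 fold change of 0.99 and of 0.83, 1.09 and 0.60 on the 3 slides. Fosl1, an AP-1 subunit, had 1.47, 1.12 and 1.55 in RASV12 cells, against -2.02, -1.32 and -2.13 in shp53 cells (3.21 ± 0.22, adjusted p = 6.28e-06). The groups were more than 2 log2 units apart at their nearest arrays. Lif, a cytokine of the interleukin 6 family, and the ETS factor Etv4 rose by 4.46 ± 0.26 and 1.86 ± 0.19 (adjusted p = 2.91e-06 and 6.52e-05). Spry1, which damps receptor tyrosine kinase signalling, had 0.12, 0.36 and 0.06 in RASV12 cells and 3.97, 3.02 and 3.95 in shp53 cells. It fell by 3.46 on the log2 scale, a log2 fold change of -3.46 ± 0.35, as did the early response genes Egr2 (-2.82 ± 0.31) and Fos (-1.39 ± 0.26), at adjusted p = 6.58e-05, 0.00011 and 0.0028.

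Ligands of the EGF receptor were among the raised genes. Areg, amphiregulin, had 1.75, 3.61 and 1.39 in RASV12 cells, against -6.45, -3.98 and -5.76 in shp53 cells, where 2 of 3 arrays measured it above background (7.65 ± 1.05, adjusted p = 0.000479). Ereg, epiregulin, and Hbegf rose by 3.62 ± 0.33 and 1.23 ± 0.13 (adjusted p = 3.34e-05 and 0.000101). Btc and Epgn were not well above background on any shp53 array and their levels were higher by at least 6.63-fold for Btc and at least 2.17-fold for Epgn (adjusted p = 0.000107 and 0.0025). Egf itself was lower by -1.30 ± 0.21 (adjusted p = 0.0011), measured on 1 RASV12 array. These were 5 higher and 1 lower of 9 tested.

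The alarmins and acute phase genes, secreted in inflammation, held some of the largest differences. Of 21 tested, 15 were higher and 1 lower, where 14.3% of all genes were higher and 12.8% lower. The median log2 fold change was 2.47, and 1.97, 2.03 and 2.07 on the 3 slides. Of the 21, 4 were above background in RASV12 cells only, where a higher value follows in part from the filter. S100a8 had 2.54, 4.17 and 2.55 in RASV12 cells, against -6.54, -8.49 and -8.50 in shp53 cells, none of these well above background. It was at least 616-fold higher, and its partner S100a9 at least 4.66-fold (adjusted p = 1.1e-05 and 0.00106). Lcn2, an iron-siderophore binding protein, had 5.40, 5.53 and 5.54 in RASV12 cells, against -2.57, -4.31 and -2.52 in shp53 cells (8.63 ± 0.63, adjusted p = 9.58e-06). The serum amyloid gene Saa3 had 7.21, 7.43 and 7.25 in RASV12 cells, against 1.23, -4.09 and 1.25 in shp53 cells. Its gap was 11.53 log2 units on slide 2 and near 6 on the others, so that the array with least macrophage signal among the shp53 cells was also lowest for Saa3. S100a16 was the member that fell (-0.77 ± 0.20, adjusted p = 0.018), a call lost without shp53 replicate 1 or 3.

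Interleukins and colony stimulating factors followed, with 11 of 17 higher and 2 lower and a median of 1.80. Of the 17, 3 were above background in RASV12 cells only, where a higher value follows in part from the filter. Il1a, the interleukin at the head of the senescent secretory programme, had -0.36, -1.91 and -0.49 in RASV12 cells and lay between -8.57 and -8.32 in shp53 cells, below background there. It was at least 38.4-fold higher (adjusted p = 2.1e-06). Il6 had 4.70, 4.08 and 4.64 in RASV12 cells, against 2.08, -0.49 and 2.08 in shp53 cells (3.25 ± 0.62, adjusted p = 0.0032). All RASV12 arrays were above all shp53 arrays for both. The granulocyte factors Csf2 and Csf3 were higher by at least 28.2-fold for Csf2 and at least 17.9-fold for Csf3 (adjusted p = 6.3e-05 and 0.000101), and Tslp, an epithelial type of cytokine, rose by 4.69 ± 0.40 (adjusted p = 2.22e-05). Osmr, the oncostatin M receptor, fell by 0.93 on the log2 scale (adjusted p = 0.011).

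Chemokines did not move as 1 group. Of 25 tested, 9 were higher and 4 lower, the median log2 fold change was 0.45, and the slide medians were -0.60, 2.64 and -0.55. Cxcl3, a neutrophil attractant, had 0.09, -0.10 and 0.26 in RASV12 cells, against -6.12, -6.07 and -5.85 in shp53 cells, where 1 array measured it (6.09 ± 0.38, adjusted p = 4.09e-06). The eosinophil attractant Ccl11, the platelet-type chemokine Ppbp and the monocyte attractant Ccl7 rose by 6.19 ± 0.39, 3.28 ± 0.26 and 2.51 ± 0.23 (adjusted p = 4.38e-06, 1.44e-05 and 3.43e-05). Cxcl14 had -0.51, 1.18 and -0.45 in RASV12 cells and 4.83, 3.96 and 4.87 in shp53 cells, and fell by 4.48 on the log2 scale (adjusted p = 6.09e-05). Cxcl15 was at least 21.6-fold lower (adjusted p = 1.09e-05). Without shp53 replicate 2, 9 chemokines passed as lower instead of 4. With the macrophage score as a covariate 14 were higher and 3 lower, where 6.2% of all genes were higher and 4.64% lower.

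The promoters of the neutrophil attractants are shown because they hold letters read by NF-kB, a factor known for inducing them. Capitals mark GGG, any 5 bases and CC on either strand, overlapping matches joined, within 250 bases before the RefSeq start (GRCm38.p6). The motif was in 45.8% of all 32851 promoters of the table, in 64.6% of those of genes tested and in 66.8% of those of genes higher in RASV12 cells. Of the chemokines higher in RASV12 cells 5 matched the table and 3 of these held it, as did 7 of 18 tested, so the motif was not more frequent among them and a match describes the sequence only.
Cxcl3 (chr5:90785961-90786080, plus strand): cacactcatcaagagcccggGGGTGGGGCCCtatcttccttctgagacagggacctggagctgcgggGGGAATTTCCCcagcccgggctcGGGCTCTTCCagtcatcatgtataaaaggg
Cxcl2 (chr5:90903782-90903850, plus strand): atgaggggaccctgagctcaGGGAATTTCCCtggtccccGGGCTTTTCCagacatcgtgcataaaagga
Cxcl1 (chr5:90891135-90891204, plus strand): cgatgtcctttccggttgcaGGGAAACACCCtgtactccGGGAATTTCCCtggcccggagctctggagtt

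Cxcl2 was at least 16.6-fold higher (adjusted p = 7.79e-05). Cxcl1 had 4.00, 4.05 and 3.92 in RASV12 cells, against 0.35, -1.85 and 0.33 in shp53 cells (4.38 ± 0.55, adjusted p = 0.000272). The same rule also selects Lif, whose matches spread over a longer stretch and are not printed.

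Proteases of the matrix and their inhibitors went both ways. Of 19 matrix metalloproteinases and their inhibitors, 7 were higher and 4 lower, with a median log2 fold change of 0.23. Of all genes 14.3% were higher and 12.8% lower, and 3 of the 19 were above background in RASV12 cells only. Mmp10, stromelysin 2, had 3.88, 3.63 and 3.90 in RASV12 cells, against -3.32, -3.98 and -3.44 in shp53 cells (7.38 ± 0.44, adjusted p = 3.65e-06). The collagenase gene Mmp13 and stromelysin 1, Mmp3, rose by 5.76 ± 0.80 and 4.08 ± 0.50 (adjusted p = 0.000491 and 0.00024), and Mmp1a was at least 26.2-fold higher (adjusted p = 0.000231). Timp3, an inhibitor that binds to the matrix, had 2.89, 2.91 and 2.80 in RASV12 cells and 6.98, 5.19 and 6.81 in shp53 cells (-3.46 ± 0.38, adjusted p = 0.00013). The membrane-anchored Mmp17 and Mmp23 also fell, by 1.43 and 1.37 on the log2 scale (adjusted p = 0.0007 and 0.0038). Most raised metalloproteinases in the promoter table hold letters read by AP-1, the factor family of Fosl1, and the 4 genes with these letters and the largest differences over the lists searched are shown, 2 of them placental lactogens. Capitals mark TGANTCA on either strand within 250 bases before the RefSeq start (GRCm38.p6).
Prl3d2 (chr13:27121559-27121645, plus strand): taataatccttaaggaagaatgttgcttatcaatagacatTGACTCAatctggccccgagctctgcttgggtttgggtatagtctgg
Prl3d1 (chr13:27094070-27094156, plus strand): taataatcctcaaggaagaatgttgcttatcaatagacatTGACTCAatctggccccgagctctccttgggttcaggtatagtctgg
Mmp10 (chr9:7502239-7502325, plus strand): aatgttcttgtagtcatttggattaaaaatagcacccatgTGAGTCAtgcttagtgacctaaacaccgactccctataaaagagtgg
Mmp1a (chr9:7464028-7464114, plus strand): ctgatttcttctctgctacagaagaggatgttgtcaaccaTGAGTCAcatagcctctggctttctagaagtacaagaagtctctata

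Of the 6 raised metalloproteinase genes in the promoter table, 5 held the letters, Mmp10, Mmp1a, Mmp13, Mmp3 and Mmp1b, the last named after its values were seen, all between 35 and 93 bases before the start. All 5 lie close together on chromosome 9, between positions 7272439 and 7502325, so they need not be independent cases. Of the list's 15 tested members in the promoter table, 6 held the letters. Of raised prolactin family genes 3 of 11 held them, and of raised ERK targets and regulators 2 of 9. They were in 6.75% of all promoters, in 5.98% of those of genes tested, in 8.97% of those of genes higher in RASV12 cells and in 5.82% of those of genes lower. The 87 bases shown for Prl3d2 and Prl3d1 differ at 4 positions. The list of metalloproteinases was chosen with the values known, and a match is not a measurement of binding.

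Among the tested genes of the prolactin family, hormones that the rodent placenta is known to make, most were higher in RASV12 cells. Of 27 listed genes 15 were tested, and 13 were higher and 0 lower, where 14.3% of all genes were higher and 12.8% lower. The median log2 fold change was 3.64. Since 7 of the 15 were above background in RASV12 cells only, those had to differ, and the count describes the tested genes alone. Prl2c5, a proliferin gene, had 5.98, 6.14 and 5.99 in RASV12 cells, against -4.12, -5.00 and -4.10 in shp53 cells (10.45 ± 0.63, adjusted p = 3.73e-06). Prl3d1, placental lactogen 1, had 5.59, 4.25 and 5.75 in RASV12 cells, against -4.56, -4.33 and -4.54 in shp53 cells (9.68 ± 0.53, adjusted p = 2.62e-06). Prl8a9 was at least 111-fold higher, and Prl2c1 rose by 3.64 ± 0.30 (adjusted p = 2.74e-06 and 1.82e-05). These genes lie in families of near-identical copies, as the 2 promoters above show, so a probe may also read a neighbour. The list's median turned to -0.44 with normexp background correction, under which 4 members and 1.51% of all genes passed as higher, and 0 members and 1.51% of all genes as lower. With 77 extreme local backgrounds replaced, normexp gave a median of 1.21. Then 10 members passed as higher and 0 as lower, beside 1636 and 1378 of the 14447 genes.

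A similar gain was seen in genes of the cornified envelope, the protein shell of skin keratinocytes, which were grouped after their values were seen. Of 35 genes named Lce or Sprr on the array, 22 were tested, 18 were higher and 1 lower. Lce1g had 3.77, 1.55 and 3.75 in RASV12 cells, against -5.09, -5.87 and -5.29 in shp53 cells (8.44 ± 0.99, adjusted p = 0.000179). Sprr2e was at least 46.6-fold higher (adjusted p = 9.93e-07). Sprr2k was the 1 that fell (-2.15 ± 0.56, adjusted p = 0.0167), a call lost without RASV12 replicate 1 or 3. The copies are similar in sequence, and 6 of the 22 were above background in RASV12 cells only. Keratins and claudins did not follow as a group, since 2 of 6 tested epithelial markers were higher, Krt18 (3.24 ± 0.80, adjusted p = 0.0125) and Cldn3 (3.51 ± 0.57, adjusted p = 0.00136).

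**Figure D3:**
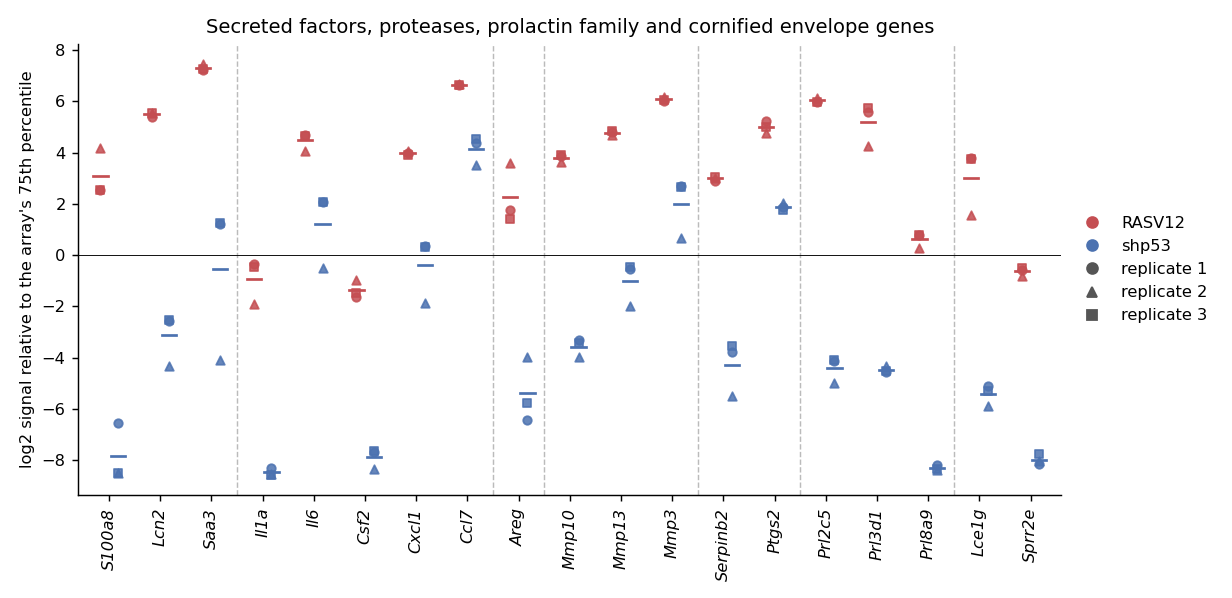
Scaled log2 signal of secreted factors, proteases, prolactin family and cornified envelope genes on each array, RASV12 (red) left of shp53 (blue), with replicates as symbols and group means as bars. All RASV12 arrays lie above all shp53 arrays for each of the 19 genes, and shp53 replicate 2 is the lowest shp53 array for Saa3, Il6 and Cxcl1.

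Plasminogen activation and prostaglandin synthesis shifted as well. Plau, the urokinase gene, rose by 2.90 ± 0.19 (adjusted p = 5.02e-06). Serpinb2, an inhibitor of urokinase, had 2.89, 3.02 and 3.05 in RASV12 cells, against -3.77, -5.51 and -3.56 in shp53 cells (7.27 ± 0.56, adjusted p = 1.27e-05). Plat, the tissue activator, fell by 1.42 on the log2 scale (adjusted p = 0.000825). Ptgs2, the inducible cyclooxygenase, had 5.23, 4.77 and 5.01 in RASV12 cells, against 1.86, 2.04 and 1.76 in shp53 cells (3.12 ± 0.22, adjusted p = 9e-06). Ptges, a prostaglandin E synthase, rose by 1.24 ± 0.13 (adjusted p = 0.000106), and Hpgd, which degrades prostaglandins, was lower by -3.70 ± 0.92 (adjusted p = 0.0135). For Hpgd the RASV12 arrays had -4.54, -3.95 and -4.50 and the shp53 arrays 0.79, -3.47 and 0.80, in the order of the macrophage markers, and the call was lost without shp53 replicate 1 or 3.

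Collagen genes were mostly lower in RASV12 cells. Of 29 collagen chains 17 were lower and 1 higher, with a median log2 fold change of -1.68. The slide medians of -1.75, -1.70 and -1.87 were alike. The macrophage markers had medians of -4.91, -0.73 and -4.99 on the same slides, and their part in the collagen values was not tested beyond the covariate fit given below. Col10a1, a collagen of hypertrophic cartilage, had -2.97, -1.60 and -2.73 in RASV12 cells, against 2.76, 2.88 and 2.69 in shp53 cells (-5.21 ± 0.50, adjusted p = 4.9e-05). Col4a1, of basement membranes, had 1.38, 1.64 and 1.29 in RASV12 cells, against 3.53, 3.65 and 3.53 in shp53 cells (-2.13 ± 0.18, adjusted p = 2.2e-05). The fibrillar collagens Col1a2 and Col3a1 fell by 1.86 and 4.40 on the log2 scale (adjusted p = 0.00557 and 0.00266), and Col1a1 overlapped between groups and did not pass (adjusted p = 0.784). Col24a1 was the collagen that rose (0.86 ± 0.20, adjusted p = 0.0096). With the macrophage score as a covariate 10 collagens were lower and 1 higher, where 4.64% of all genes were lower and 6.2% higher. They were 10 and 0 with close arrays averaged, where 3.33% of all genes were lower and 3.8% higher.

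Elastic fibres and small proteoglycans showed the same direction. Of 22 elastic fibre genes 13 were lower and 1 higher, and of 40 proteoglycans and glycoproteins 24 were lower and 5 higher, with medians of -1.29 and -1.67. Fbn2, a fibrillin, had -2.66, -1.33 and -2.72 in RASV12 cells, against 3.0, 3.01 and 2.83 in shp53 cells (-5.18 ± 0.40, adjusted p = 1.3e-05). Eln, elastin, had -5.96, -4.12 and -5.12 in RASV12 cells, where 2 arrays measured it, against -0.17, 0.50 and -0.14 in shp53 cells (-5.13 ± 0.43, adjusted p = 2.3e-05). The groups lay over 3 log2 units apart for both. Omd, osteomodulin, was at least 47.6-fold lower (adjusted p = 3.73e-06), and Ogn, Aspn and Abi3bp were lower by -6.18 ± 0.54, -8.13 ± 0.96 and -8.16 ± 0.87 (adjusted p = 2.57e-05, 0.000179 and 9.51e-05). On RASV12 arrays Aspn and Abi3bp were measured once, on replicate 2. Against the list's direction, the hyaluronan synthases Has1 and Has2 and tenascin C, Tnc, rose by 2.49 ± 0.43, 2.13 ± 0.47 and 0.85 ± 0.20 (adjusted p = 0.0019, 0.0074 and 0.011). Efemp1 was the elastic fibre gene that rose (1.94 ± 0.53, adjusted p = 0.021), lost without replicate 1 or 3 of either group.

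Receptors and the contractile apparatus changed beside the matrix. Of 17 integrin subunits 5 were higher and 5 lower, where 14.3% of all genes were higher and 12.8% lower. Itga11, a collagen receptor, had -0.55, 2.08 and -0.47 in RASV12 cells, against 5.93, 5.67 and 5.91 in shp53 cells (-5.48 ± 0.70, adjusted p = 0.000303), and Itga1 and Itga8 fell too (-3.86 ± 0.54 and -4.55 ± 0.77, adjusted p = 0.00054 and 0.00171). Itga2, another collagen receptor, was at least 6.52-fold higher, and Itga3 rose by 2.50 ± 0.30 (adjusted p = 0.000825 and 0.000187). Of 19 contractile genes 8 were lower and 0 higher. Myocd, a coactivator of smooth muscle genes, was at least 5.55-fold lower (adjusted p = 7.17e-05), and its known targets Mylk and Cnn1 fell by 4.00 and 2.14 on the log2 scale (adjusted p = 0.000333 and 0.00172).

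The fibroblast markers fell in part. Of 17 tested, 8 were lower and 1 higher, where 12.8% of all genes were lower and 14.3% higher, and 5 were lower without shp53 replicate 1. Fap, a surface protease of activated fibroblasts, had -1.23, -0.88 and -1.15 in RASV12 cells, against 1.88, 1.64 and 1.89 in shp53 cells (-2.89 ± 0.20, adjusted p = 7.76e-06). Pdgfrb, a growth factor receptor, fell by 1.69 on the log2 scale (adjusted p = 8.83e-05), while Pdgfra and Thy1 did not pass (adjusted p = 0.395 and 0.105). Twist2, a mesenchymal transcription factor, rose by 1.63 ± 0.22 (adjusted p = 0.000404). The defining fibroblast genes, named after their values were seen, were Col1a1, Col1a2, Col3a1, Pdgfra, Pdgfrb and Thy1. Of these Col1a2, Col3a1 and Pdgfrb were lower, and Col1a1, Pdgfra and Thy1 did not pass.

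**Figure D4:**
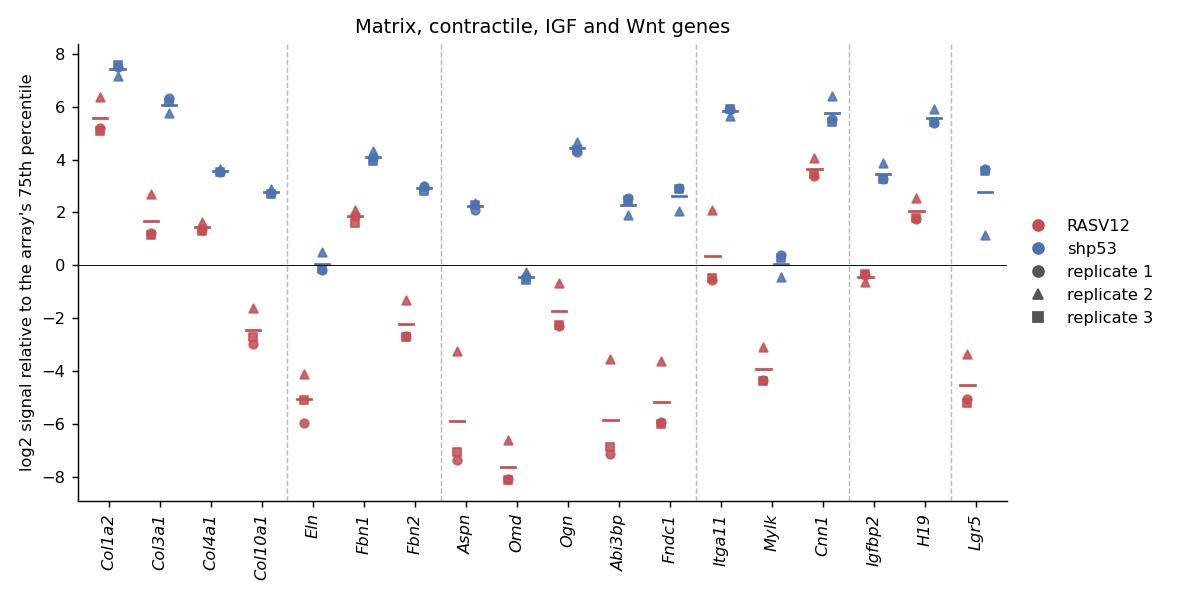
Scaled log2 signal of matrix, contractile, IGF and Wnt genes on each array, RASV12 (red) left of shp53 (blue), with replicates as symbols and group means as bars. All RASV12 arrays lie below all shp53 arrays for each of the 18 genes, and RASV12 replicate 2 is the highest RASV12 array for Col3a1, Aspn and Itga11.

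Developmental signalling genes were lower in part. Of 33 Wnt pathway genes 17 were lower and 6 higher, with a median of -1.38 and slide medians of -1.23, -0.92 and -1.31. Lgr5, a receptor for R-spondins, had -5.06, -3.35 and -5.23 in RASV12 cells, against 3.64, 1.14 and 3.58 in shp53 cells (-7.33 ± 0.73, adjusted p = 6.3e-05). The receptor Fzd4 and the antagonist Sfrp1 fell by 3.48 and 3.97 on the log2 scale (adjusted p = 9.27e-06 and 9.68e-05), and Rspo4 was at least 29.6-fold higher (adjusted p = 3.32e-05). Of 29 TGF beta and BMP pathway genes 7 were higher and 7 lower, where 14.3% of all genes were higher and 12.8% lower. Bmp2 and the BMP antagonist Grem1 were among those that rose (4.77 ± 0.56 and 2.72 ± 0.30, adjusted p = 0.000187 and 0.000137). Tgfb2 and Tgfb3, both ligands, fell (-3.76 ± 0.59 and -2.61 ± 0.26, adjusted p = 0.00107 and 6.58e-05). Of 35 Hox genes 6 were higher and 1 lower, where 14.3% of all genes were higher and 12.8% lower, and the higher count lay between 3 and 12 when 1 array was left out, with 12 without shp53 replicate 2.

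Genes of fetal growth were lower in part. Of 13 genes of the IGF axis 6 were lower and 0 higher, and of 20 imprinted genes 8 were lower and 3 higher. H19, an imprinted noncoding RNA, had 1.76, 2.56 and 1.80 in RASV12 cells, against 5.40, 5.93 and 5.43 in shp53 cells (-3.55 ± 0.48, adjusted p = 0.000425). Its neighbour Igf2, a fetal growth factor, fell by 2.52 on the log2 scale (adjusted p = 0.000236). Igfbp2, an IGF binding protein, had -0.38, -0.63 and -0.35 in RASV12 cells, against 3.25, 3.89 and 3.25 in shp53 cells (-3.92 ± 0.41, adjusted p = 8.7e-05). Mest was lower by -3.61 ± 0.56 (adjusted p = 0.000988). The imprinted genes that rose, Impact, Nnat and Ndn, were 1 without replicate 1 or 3 of either group.

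Metabolic lists differed in direction. Of 29 glycolysis and hypoxia genes 15 were higher and 0 lower, with a median of 0.85 and slide medians of 0.86, 0.88 and 0.95, and 5 to 9 were higher when any 1 array was left out. Vegfa, the angiogenic factor, had 2.74, 2.80 and 2.62 in RASV12 cells, against 1.34, 1.71 and 1.49 in shp53 cells (1.20 ± 0.26, adjusted p = 0.00635). Adm, Car9 and Pkm, the glycolytic pyruvate kinase, rose by 1.80 ± 0.39, 1.49 ± 0.33 and 0.78 ± 0.18 (adjusted p = 0.00703, 0.00687 and 0.00918). Of 21 NRF2 and glutathione genes 8 were higher and 0 lower, with Srxn1, which repairs peroxiredoxins, at 1.44 ± 0.20 and Hmox1, which degrades heme, at 1.85 ± 0.38 (adjusted p = 0.000486 and 0.00481). Of 24 cholesterol synthesis genes 11 were lower and 1 higher, and 4 to 10 were lower with 1 array left out, 4 without RASV12 replicate 2. Hmgcs1, an early enzyme of that pathway, had 2.96, 2.57 and 3.14 in RASV12 cells, against 4.35, 4.81 and 4.31 in shp53 cells (-1.60 ± 0.26, adjusted p = 0.00129). Amino acid and ER stress genes had 5 of 22 lower and 0 higher, where 12.8% of all genes were lower and 14.3% higher. Asns and Ddit3 were among the lower (-1.32 ± 0.29 and -1.36 ± 0.32, adjusted p = 0.00688 and 0.0096). With close arrays averaged, 0 glycolysis genes and 2 NRF2 genes passed as higher and 2 cholesterol genes as lower.

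Macrophage markers were lower in RASV12 cells, and by how much depended on the slide. Of 40 tested, 29 were lower and 0 higher, with a median log2 fold change of -3.75. The slide medians were -4.91, -0.73 and -4.99, and on slide 2 31 of the 40 were lower and 9 higher. The markers' summed signal on slide 2 was higher in RASV12 cells, at 30.8 against 24.5 in shp53 cells. Cx3cr1, the fractalkine receptor, had -8.31, -6.70 and -7.78 in RASV12 cells, none above background, against 2.48, -1.14 and 2.54 in shp53 cells, and was at least 157-fold lower (adjusted p = 6.3e-05). Csf1r, the receptor macrophages need to survive, had 0.09, -0.61 and 0.02 in RASV12 cells, against 4.45, 0.75 and 4.48 in shp53 cells (-3.39 ± 0.83, adjusted p = 0.0123). Cd68 had -0.63, -0.57 and -0.64 in RASV12 cells and 3.39, -0.57 and 3.48 in shp53 cells, so the arrays of slide 2 were level for it. Of 8 defining markers, 5, 6 and 5 were above background on RASV12 replicates 1, 2 and 3 and all 8 on each shp53 array. Without shp53 replicate 1 or 3 the list had 17 or 18 lower, and with close arrays averaged 3. Without the array that stood apart in each of the 4 groups it had 39 lower, where 25.8% of all genes were lower. With shp53 replicate 2 as the only shp53 array, 8 were lower and 1 higher, where 5.39% of all genes were lower and 6.35% higher.

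Csf1, the ligand of Csf1r, is a member of the interleukin list that rose, chosen here after its values were seen because it runs against its receptor. It had 5.26, 5.02 and 5.30 in RASV12 cells, against 3.17, 2.13 and 3.27 in shp53 cells (2.34 ± 0.44, adjusted p = 0.00317). Among other cell types, 1 of 7 tested blood markers was higher, Mcpt4, a mast cell protease (5.79 ± 0.65, adjusted p = 0.000138), and 0 were lower. Of 10 endothelial markers 2 were higher and 3 lower. Over all genes 14.3% were higher and 12.8% lower, so the blood count is close to that share and the endothelial counts rest on few genes. Adipocyte markers had 3 of 5 lower, with Lpl, lipoprotein lipase, at -4.34 ± 1.08 (adjusted p = 0.013), a gene that macrophages also express and that followed their markers on slide 2.

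Interferon-stimulated genes went opposite ways on different slides. Of 29 tested, 1 was higher and 0 lower, the median was -0.55, and the slide medians were -1.83, 2.31 and -1.91. The list's median signal was -1.15, 2.37 and -1.21 on RASV12 replicates 1, 2 and 3, against 0.63, -0.56 and 0.63 on the shp53 arrays. On slide 2 all 29 were higher in RASV12 cells. Without the array that stood apart in each of the 4 groups 28 were lower and 1 higher, where 25.8% of all genes were lower and 32.7% higher. The 1 that passed, Ifit2, an antiviral RNA-binding protein, had -1.11, -0.63 and -1.21 in RASV12 cells, against -1.85, -2.37 and -1.96 in shp53 cells (1.08 ± 0.20, adjusted p = 0.00256). Oas2, an enzyme that senses double-stranded RNA, had -5.07, -0.33 and -5.00 in RASV12 cells, against 0.29, -3.85 and 0.57 in shp53 cells, overlapped and did not pass (adjusted p = 0.208). The summed macrophage signal was highest among RASV12 arrays on the same replicate 2, at 30.8 against 20.3 and 16.6 on the others. On shp53 replicates 1, 2 and 3 it was 279, 24.5 and 274. On the arrays with both vectors it was only 7.26 to 14.5, while the interferon median there was 1.13 to 2.85. The part of macrophages in the interferon values was not tested. Without RASV12 replicate 2, 22 of the 29 passed as lower.

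Antigen presentation genes went both ways, at shares near those of all genes (14.3% higher, 12.8% lower). Of 14 MHC class I and antigen processing genes 2 were higher and 2 lower, and with 1 array left out 1 to 2 were higher and 0 to 2 lower, with 0 lower without RASV12 replicate 3 and 1 higher without RASV12 replicate 2 or 3 or shp53 replicate 2. Among the higher was Nlrc5, the activator of class I genes, at 3.17 ± 0.49 (adjusted p = 0.000988). H2-Ab1, a class II chain, had 0.51, -0.89 and 0.52 in RASV12 cells, against -6.12, -5.57 and -5.80 in shp53 cells, where 2 arrays measured it (5.88 ± 0.97, adjusted p = 0.00143). All RASV12 arrays were above all shp53 arrays. Cd74, the class II chaperone, was lower by -1.36 ± 0.45 (adjusted p = 0.047), a call lost when any array but RASV12 replicate 3 was left out.

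**Figure D5:**
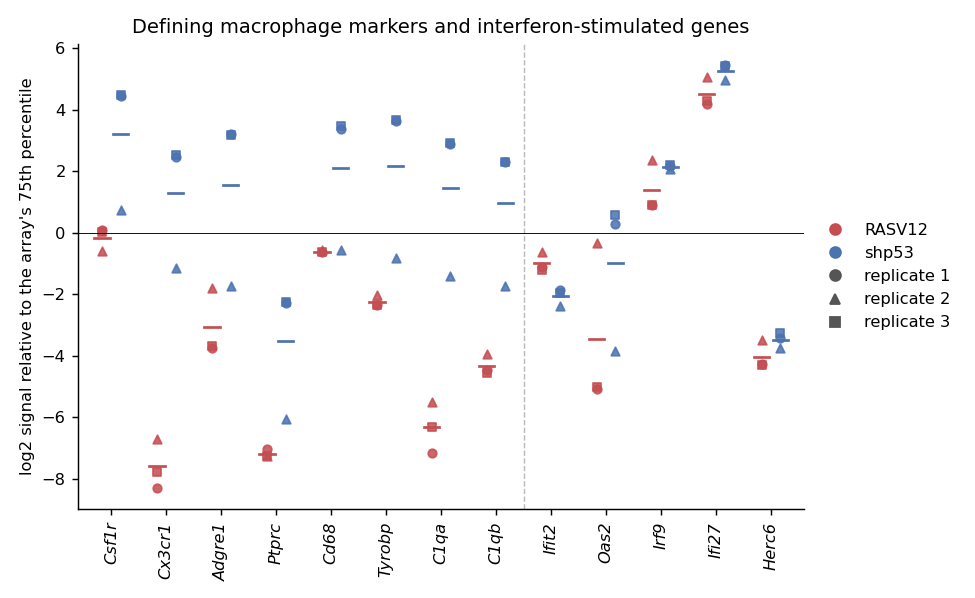
Scaled log2 signal of the 8 defining macrophage markers and of 5 interferon-stimulated genes on each array, RASV12 (red) left of shp53 (blue), with replicates as symbols and group means as bars. Replicate 2 (triangles) is the lowest shp53 array for all 8 macrophage markers and the highest RASV12 array for all 5 interferon genes.

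Levels in the cells with both vectors show which of these values also held there. The comparisons share the RASV12 and shp53 arrays. Fosl1 averaged 1.38 ± 0.23 in RASV12 cells and -1.82 ± 0.44 in shp53 cells, beside 1.43 ± 0.14 in shp53 then RASV12 cells and 1.5 ± 0.16 in RASV12 then shp53 cells (SD, n = 3 each). Mmp10 averaged 3.80 ± 0.15 in RASV12 cells and -3.58 ± 0.35 in shp53 cells, beside 3.30 ± 0.94 in shp53 then RASV12 cells and 3.87 ± 0.65 in RASV12 then shp53 cells. For both genes the cells with both vectors lay near the RASV12 level. Mmp13, in contrast, averaged 4.77 ± 0.08 in RASV12 cells and -0.99 ± 0.87 in shp53 cells, beside -0.55 ± 1.63 in shp53 then RASV12 cells and 0.32 ± 1.18 in RASV12 then shp53 cells. RASV12 cells exceeded the mean of both 2-vector groups by 4.88 ± 0.69 for Mmp13 and by 7.74 ± 0.46 for Prl3d1 (adjusted p = 0.00049 and 2e-06, where 36.5% of genes passed in either direction). Col10a1 averaged -2.43 ± 0.73 in RASV12 cells and 2.77 ± 0.10 in shp53 cells, and both lay above shp53 then RASV12 cells (-8.25 ± 0.46) and RASV12 then shp53 cells (-7.91 ± 1.04).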

How the data were processed

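RNA of 6 MEF samples, 3 RASV12 and 3 shp53, was measured on 1-colour Agilent arrays, fitted with the 6 arrays of cells with both vectors. The authors' scanner output gives, per the file headers, a processed intensity of every spot, background-subtracted and detrended within the array and not scaled between arrays, and the median intensities of spot and background. Deposited flags of 0 or 1, another kind of value, mark spots above background, non-uniform or saturated. The headers name Feature Extraction 11.5.1.1 and the submitters' processing notes 10.7.3.1, a difference that was not settled. The authors' deposited log2 values (25916 probes, array medians -0.0067 to 0.166) equalled, within 0.05, the log2 signal less the 75th percentile less the shp53 median for 99.7% to 99.9% of probes of an array. It served as an alternative only.

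Each array held 43020 non-control spots for 39429 probes, and 1717 flagged spot values (0.333%) were left out, with 0 saturated. The log2 processed signal less the array's 75th percentile over non-control spots was averaged per probe. A probe was kept if 1 or more groups had it well above background on each of 3 arrays (23910), and the probe with the highest mean stood for a gene. RefSeq names matched 28330 probes, and 11099 were without a name. Among those without a name 4861 were kept, and these stayed out of the tests by gene. The array's design is on an older build, so coordinates are given for RefSeq promoters alone. limma 3.58.1 (R 4.3.3) fitted 1 mean for each of 4 groups, with Benjamini-Hochberg adjustment over 14447 genes and calls at 0.05. The procedure was tested on simulated data. If all arrays of 1 group were below background, the fold given is a bound set by the lowest signal above it.

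The genes named were the 15 highest and 15 lowest called genes whose groups did not overlap, up to 6 members of each of 42 lists by adjusted p, up to 3 members called against the list's direction and a fixed set of p53, RAS, senescence and macrophage genes. Promoters shown were, for each motif, the called members of its lists with the largest differences. Some genes that this rule selects are not reported here. The arrays, lists and rules were chosen with earlier results of these data known. The macrophage score was the mean scaled log2 signal of the macrophage markers. Alternatives were normexp (offset 50, on median spot and local background signals), quantile scaling, median centring, other filters and probe rules, a trended and robust spread, a fit of 6 arrays, the replicate block, stricter limits, the authors' table, leaving out each array, averaging close arrays, the macrophage covariate, and leaving out blood cell genes. Normexp with 77 local backgrounds over 5 times the median replaced, and shp53 replicate 2 as the only shp53 array, were chosen after seeing the data.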

Additional observations from a re-analysis of the deposited data

Results flagged for a closer look

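Probes without a gene name were left out of the comparison. Of 4861 kept probes of this kind, 70 were well above background on all 3 RASV12 arrays and on 0 shp53 arrays, a signal in data that the comparison did not use. In the same probe-level fit, 669 of them passed as higher and 315 as lower in RASV12 cells, and 82 showed the opposite pattern of detection. Their genes were not analysed here.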

How the results depend on the processing

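The number of genes called was 3917, and with 1 array left out it lay between 2723 (without shp53 replicate 3) and 3854 (without shp53 replicate 2). It was 1030 with close arrays averaged, 1567 with the macrophage score as a covariate, 1696 with shp53 replicate 2 as the only shp53 array, 2267 at an adjusted p under 0.01, 2263 with a 2-fold limit, 8452 without the arrays that stand apart and 436 with normexp, where all genes together had a median of -0.21. With 77 extreme local backgrounds replaced normexp gave 3014. The share higher was 52.8%, and it lay within 10 percentage points of that under each alternative run. Deviations from the group mean, compared over genes between arrays with the same replicate number, had correlations of -0.08, -0.11 and -0.01. With 3 arrays a group, and replicate 2 apart in both, these cannot decide whether the numbers pair the samples. With the replicate block, which is also the slide, 3934 genes passed, and 3628 in the fit of 6 arrays with it.

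Over 294 named genes and their alternatives, 6117 of 6880 values kept their direction and side of the threshold, 659 no longer passed, 79 newly passed and 25 changed direction, for causes that were not tested. Log2 fold changes that turned negative with normexp were Bcl2l11 (-0.26), Btc (-0.69), Cdh5 (-1.07), Epgn (-1.52), Esam (-0.94), H2-Eb1 (-0.49), Hoxb5 (-0.031), Hoxc11 (-1.24), Itga2 (-0.87), Mylpf (-1.09), Prl8a6 (-1.30), S100a9 (-0.84), Saa2 (-0.54), Spred3 (-0.20) and Tcf7 (-1.28). With the macrophage score as a covariate Adgre1 (0.15), Cd36 (1.65), Cd68 (0.83), Hpgd (0.29), Il18 (0.092), Lpl (0.23) and Pf4 (3.55) turned positive, as did Pf4 with shp53 replicate 2 alone (2.35). Adgre1, Cd68 and Pf4 are themselves part of the score, so their sign in the covariate fit is not a separate result. With a gene's probes averaged Impact was -0.25 and Nras 0.63. Low signals limit the bounds, which depend on the lowest signal above background.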
